A study of Oryza sativa with 4 samples.

Results

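The genes described here are those whose transcripts were far higher after chilling in the indica rice cultivar 93-11, with a small ratio by the same measure in the japonica cultivar Nipponbare. Members were chosen by their measured levels. In 93-11, (chilled RPKM + 1) / (untreated RPKM + 1) had to be at least 6. In Nipponbare the same ratio had to be at most 2, and genes at 0 in both Nipponbare libraries were left out. RPKM is the read number of a gene divided by its length in kilobases and by the depth of its library. The rule found 61 of 55985 identifiers, or 0.109 percent of them. Because all 4 libraries entered this choice, the levels and ratios of the members are a description, with no test.

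The libraries were made from pooled aerial parts of seedlings at an age of 15 days. Each cultivar gave 1 chilled library, from seedlings kept at 4 °C for 33 h, and 1 untreated library, from seedlings left in the greenhouse. Both cultivars were grown in flooded nutrient soil, per the labels' protocols. Library totals worked out from the values were 13012799 reads in chilled 93-11, 16682882 in untreated 93-11, 13482486 in chilled Nipponbare and 12671333 in untreated Nipponbare. No group has a replicate, so a ratio below carries at most a counting interval, which compares libraries and not conditions. In pooled seedlings, fewer cells of a type and less RNA per cell cannot be told apart. All 4 root marker genes, among them the silicon transporter LSI1, were at or below 6.09 RPKM in every library. The light-harvesting genes CAB1R and CAB2R of green shoots lay between 52.1 and 58.7 RPKM in chilled and between 5019 and 6390 in untreated 93-11. In Nipponbare they lay between 13.4 and 90.7 RPKM when chilled and between 4474 and 6205 when untreated. The other 2 green shoot loci, listed as Rubisco small subunit genes with names not checked, lay between 3439 and 4276 RPKM in chilled and between 7047 and 17330 in untreated 93-11. In Nipponbare they lay between 5058 and 5432 RPKM when chilled and between 6938 and 11962 when untreated.

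Rice is a plant of warm climates, and chilling slows its growth and damages its leaves, with indica cultivars generally reported as more sensitive than japonica ones. Cold is sensed within minutes to hours through calcium signals, read by calmodulin-like proteins among others. It also switches on DREB1 factors, plant transcription factors of the AP2/ERF family that bind cold- and drought-response elements in promoters. Brassinosteroids, growth hormones that act through BZR1-type transcription factors, are linked to temperature responses in several plants.

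The levels of the members follow from the rule and are given as a description. Chilled 93-11 had a median of 15.5 RPKM over the 61 genes (range 5.19 to 454), against 0.565 in untreated 93-11 (0 to 18.2). In chilled Nipponbare the median was 2.16 RPKM (0 to 43.2), and in untreated Nipponbare it was 1.37 (0 to 24.0). In chilled 93-11, 36 members reached 10 RPKM, while 4 did so in untreated 93-11, 14 in chilled Nipponbare and 9 in untreated Nipponbare. The untreated 93-11 library was the lowest of the 4, with no tie, for 40 members. Neither this count nor those at 10 RPKM were worked out over all identifiers. The rule favours a low untreated 93-11 level, so nothing is read from them. Of the members, 7 had no read in untreated 93-11, 1 had none in chilled Nipponbare and 8 had none in untreated Nipponbare.

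**Figure D1:**
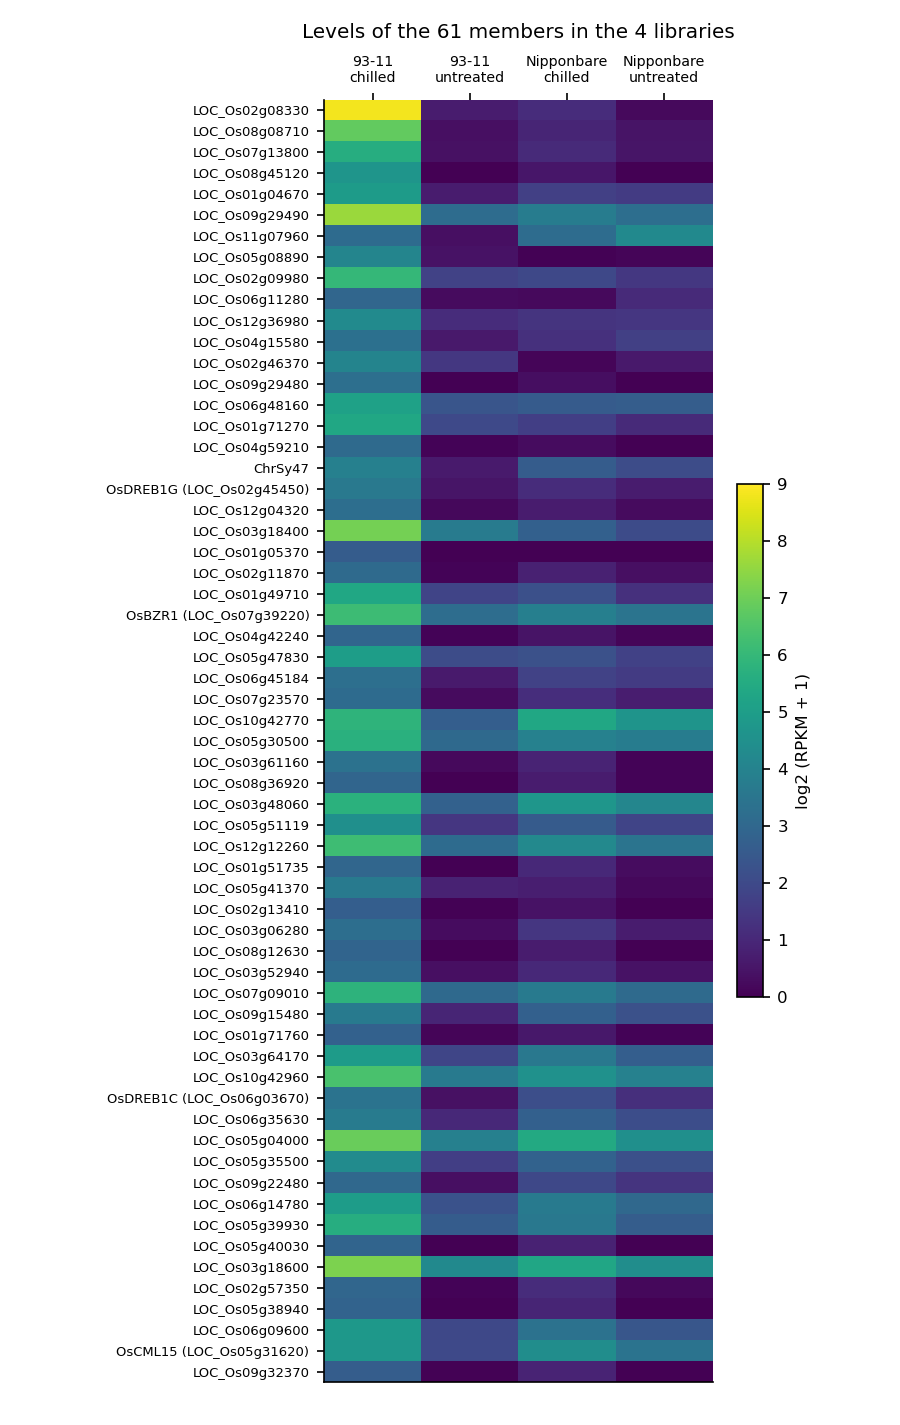
Levels of all 61 members as log2 (RPKM + 1), with genes down the page in the order of the difference between the log2 ratios of 93-11 and Nipponbare and the 4 libraries across it (1 library each). The chilled 93-11 column is the brightest of the 4 in 60 of the 61 rows, and LOC_Os02g08330 at 454 RPKM is the brightest cell.

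By the ratio (RPKM + 1) of the rule, most members passed the 93-11 threshold by little. The added 1 RPKM lowers this ratio for genes with a low untreated level. In reads per library total, the counting interval in 93-11 lay above 6-fold for 58 of the 61 members. The members' median ratio (RPKM + 1) in 93-11 was 7.72, and 36 of them lay under 8, while 11 reached 10 and 5 reached 20. In 93-11, 912 identifiers (1.63 percent of all) reached a ratio of 6, and their median was 10.4. In Nipponbare 790 (1.41 percent) reached 6, none of them a member by construction. Of the 912 genes, 567 reached 6 in Nipponbare too, 275 lay between 2 and 6 there, and 70 lay at or under 2. The 61 members are thus 6.69 percent of the genes that reached the threshold in 93-11. The other 9 of the 70 had no read in either Nipponbare library and were left out, with 9.19 to 168 RPKM in chilled 93-11. By the mirrored rule, 45 genes had a ratio of at least 6 in Nipponbare and of at most 2 in 93-11.

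**Figure D2:**
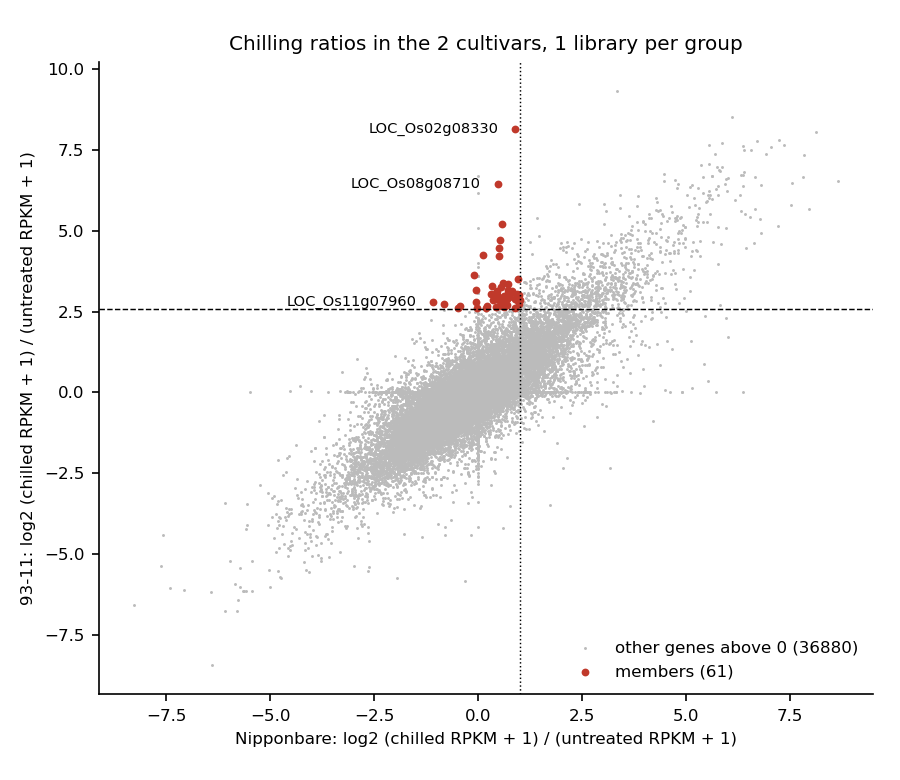
Each point is 1 gene above 0 in any library, with its chilled-over-untreated log2 ratio (RPKM + 1) in Nipponbare on the x axis and in 93-11 on the y axis. The dashed line marks a ratio of 6 in 93-11, the dotted line a ratio of 2 in Nipponbare, and the 61 members (red) fill the upper left corner, close to both lines except for a few genes led by LOC_Os02g08330. Grey points in that corner are the 9 genes at 0 in both Nipponbare libraries.

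Genes lay on either side of each threshold. Just inside the 93-11 threshold stood LOC_Os02g46370, LOC_Os01g05370 and LOC_Os09g32370, with ratios (RPKM + 1) of 6.06, 6.08 and 6.11. Their ratios of reads per library total in 93-11 were 8.97 (95% counting interval 5.93 to 14.1), 282 (50.1 to 11190) and 200 (35.4 to 7949). Just outside the 93-11 threshold stood LOC_Os02g50810, LOC_Os06g49680 and LOC_Os01g27230, at 5.91, 5.89 and 5.82 by the ratio (RPKM + 1). Just inside the Nipponbare limit were LOC_Os06g09600 (1.99), OsCML15 (LOC_Os05g31620, 1.99) and LOC_Os05g04000 (1.96). Just beyond it were LOC_Os03g20090 (2.01), LOC_Os02g45780 (2.1) and LOC_Os07g35290 (2.13). Between 1.9 and 2 lay 10 of the members, and 29 lay at or above 1.5. Of the genes with a ratio of at least 6 in 93-11, 1 lay above 2 and up to 2.1 in Nipponbare.

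The files give no gene descriptions, and a locus identifier states the chromosome and the order of genes along it. A name that the RefSeq gene table does not contradict, by chromosome and gene order, was at hand for 4 members: the factors OsDREB1G and OsDREB1C, the brassinosteroid factor OsBZR1 and the calmodulin-like protein OsCML15. The other 57 are given by identifier, with no function.

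The cold regulators among the members are both DREB1 genes. OsDREB1G (LOC_Os02g45450) had 11.5 RPKM in chilled and 0.424 in untreated 93-11, and 1.22 in chilled and 0.620 in untreated Nipponbare. In reads these are 191 and 9 in 93-11 and 21 and 10 in Nipponbare. The chilled 93-11 library was the highest by far, chilled Nipponbare came next, and untreated 93-11 was the lowest. The ratio of reads per library total was 27.2 in 93-11 (95% counting interval 14.03 to 60.4) and 1.97 in Nipponbare (0.89 to 4.69). With reads scaled by the TMM method (trimmed mean of M values), the Nipponbare ratio was 2.53 (1.14 to 6.02), with an interval above 1.

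OsDREB1C (LOC_Os06g03670) had 9.68 RPKM in chilled and 0.319 in untreated 93-11, and 3.49 in chilled and 1.33 in untreated Nipponbare. Here untreated 93-11, with 6 reads, was the lowest library, and chilled Nipponbare (53 reads) was above untreated Nipponbare (19). The read ratio was 30.3 in 93-11 (13.6 to 84.1) and 2.62 in Nipponbare (1.53 to 4.69), so Nipponbare had more OsDREB1C reads after chilling too. With TMM scaling the Nipponbare ratio of OsDREB1C (RPKM + 1) was 2.27, over the limit of the rule, while that of OsDREB1G was 1.54.

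Of 12 loci listed as DREB and ICE regulators, 4 reached a ratio of 6 in 93-11 and 0 did in Nipponbare, beside 1.63 and 1.41 percent of all identifiers. With TMM scaling, as with upper quartile scaling, the counts were 5 and 1. The 2 that were not members were the neighbours OsDREB1A, at 31.1 and 0.911 RPKM in chilled and untreated 93-11, and OsDREB1B, at 42.2 and 0.855. They were not members because in Nipponbare their ratios were 5.24 and 4.46. OsDREB2B, a factor of drought and heat responses, had ratios of 5.64 in 93-11 and 1.41 in Nipponbare and so just missed the rule. With TMM scaling OsDREB2B met it, at 6.58 and 1.79, and OsDREB1A reached 6.21 in Nipponbare. OsDREB1H had 26 reads in chilled and 0 in untreated 93-11, and 3 and 4 in Nipponbare. The median difference between the 2 cultivars' log2 ratios (RPKM + 1) was 1.65 over the 12 loci and 0.00 over all identifiers. Only 36941 identifiers were above 0 in any library, and the rest have a difference of 0.00. The 12 loci also include 2 members chosen by this difference, so nothing is read from the contrast. Nearly identical neighbours such as OsDREB1A, OsDREB1B and OsDREB1H can share reads, so they are uncertain as single genes.

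OsBZR1 (LOC_Os07g39220), the transcription factor at the end of brassinosteroid signalling, was singled out after its values were seen. It had 71.8 RPKM in chilled and 8.22 in untreated 93-11, and 13.9 in chilled and 10.04 in untreated Nipponbare. The untreated libraries of the cultivars were near each other, and the chilled 93-11 library was far above all 3 others. With 1314 and 193 reads in 93-11 and 264 and 179 in Nipponbare, its read ratios were 8.73 (7.50 to 10.2) in 93-11 and 1.39 (1.14 to 1.69) in Nipponbare. It stayed within the rule with TMM and with upper quartile scaling.

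No other gene of 12 listed for brassinosteroid synthesis and signalling, a list added after the values were seen, reached a ratio of 6 in either cultivar, under any of the 3 scalings. As deposited, 1.63 and 1.41 percent of all identifiers reached it in 93-11 and Nipponbare, so nothing is read from this count. The receptor gene OsBRI1 had 15.4 RPKM in chilled and 17.97 in untreated 93-11, and 17.1 and 22.1 in Nipponbare. OsGSK2, a kinase that restrains BZR1-type factors, had 1.61 RPKM in chilled and 3.31 in untreated 93-11, and 0.756 and 3.81 in Nipponbare. The synthesis gene D11 had 1.08 RPKM in chilled and 5.56 in untreated 93-11, and 0.738 and 3.4995 in Nipponbare. OsGSK2 and D11 were lower in the chilled library of each cultivar under all 3 scalings, unlike OsBZR1. The listed loci LOC_Os03g40540 and LOC_Os04g49230 went the other way and were higher when chilled in each cultivar under all 3 scalings. As deposited, their ratios (RPKM + 1) were 2.90 and 2.49 in 93-11, and 1.96 and 2.11 in Nipponbare. OsBRI1 was lower as deposited, but its ratios (RPKM + 1) with TMM scaling were 1.004 in 93-11 and 0.992 in Nipponbare. The co-receptor gene OsBAK1 was higher in 93-11 than in Nipponbare in both conditions, at 37.2 against 15.5 RPKM chilled and 25.0 against 11.2 RPKM untreated.

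OsCML15 (LOC_Os05g31620) encodes a calmodulin-like protein, a class of small calcium-binding proteins, and was also singled out after its values were seen. It had 25.7 RPKM in chilled and 3.0 in untreated 93-11, and 20.5 in chilled and 9.83 in untreated Nipponbare. The chilled libraries were close to each other, and the lowest library was untreated 93-11. Its read ratios were 8.58 (6.34 to 11.8) in 93-11 and 2.09 (1.68 to 2.61) in Nipponbare, and with TMM scaling its Nipponbare ratio (RPKM + 1) was 2.50, over the limit. The list of 12 calmodulin and calmodulin-like loci was added after the values were seen. Of them, 4 reached a ratio of 6 in 93-11 and 3 in Nipponbare, beside 1.63 and 1.41 percent of all identifiers. With TMM scaling 4 and 4 did, beside 1.9 and 1.81 percent. OsCML15 is itself among the 4 in 93-11, so nothing is read from these counts. OsCML31 had 675 RPKM in chilled and 2.40 in untreated 93-11, and 307 and 5.61 in Nipponbare, far above OsCML15 in level in each chilled library. OsCML4 had 47.3 and 5.82 RPKM in chilled and untreated 93-11, and 60.9 and 3.67 in Nipponbare.

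Across the 20 lists written for this work, 39 of 201 loci reached a ratio of 6 in 93-11 and 31 in Nipponbare. Over all identifiers 1.63 and 1.41 percent did. Members numbered 2, both DREB1 genes, beside 0.109 percent of all identifiers. With TMM scaling 44 and 38 of the 201 reached a ratio of 6, beside 1.9 and 1.81 percent of all identifiers. Of 22 WRKY loci, genes of stress and defence transcription factors, 11 reached it in 93-11 and 7 in Nipponbare. Of 9 NAC loci, 5 reached it in 93-11 and 8 in Nipponbare. Of 14 jasmonate loci, 4 and 5 did so, and of 15 abscisic acid loci, 3 and 2. None of these was a member, nor was any of 7 ethylene, 8 gibberellin, 9 type-A cytokinin regulator or 13 diterpenoid phytoalexin loci, of which 0 reached a ratio of 6 in either cultivar under any of the 3 scalings. At the shares over all identifiers, lists of this length would hold few such loci, so nothing is read from the counts of 0.

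By the difference of log2 ratios (RPKM + 1), the member that differed most between the cultivars was LOC_Os02g08330, on chromosome 2. By the difference of log2 read ratios it stood at 6.92, below LOC_Os01g05370 (9.23), LOC_Os06g11280 (7.39) and LOC_Os08g08710 (7.20). It had 454 RPKM in chilled and 0.604 in untreated 93-11, and 1.19 in chilled and 0.181 in untreated Nipponbare. In reads these are 12895 and 22 in 93-11, and 35 and 5 in Nipponbare. Only chilled 93-11 was above 2 RPKM. Its read ratio was 751 in 93-11 (496 to 1199) and 6.58 in Nipponbare (2.57 to 21.5). Its Nipponbare ratio (RPKM + 1) was 1.85 with values as deposited, within the limit of 2. It was 2.01 with TMM and with upper quartile scaling, over the limit, so LOC_Os02g08330 was no member under either.

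LOC_Os08g08710, on chromosome 8, had the next largest difference of log2 ratios (RPKM + 1). It had 113 RPKM in chilled and 0.297 in untreated 93-11, and 0.920 and 0.392 in Nipponbare. It had only 2 reads in untreated 93-11, so the read ratio of 379 spans 105 to 3141, and with 5 and 2 reads in Nipponbare no change was detectable there at this depth. LOC_Os07g13800 followed with 48.3 RPKM in chilled and 0.326 in untreated 93-11, and 1.11 and 0.429 in Nipponbare. These 3 members share an almost bare baseline in both untreated libraries and a single high library.

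LOC_Os08g45120 had 163 reads in chilled 93-11 and 0 in untreated 93-11. That is 69.7-fold higher when a library with no read is set to 3 reads, with a lower 95% counting bound of 56.0. It had 3 and 0 reads in Nipponbare, too few to show a change. LOC_Os01g04670 had 29.7 and 0.6002 RPKM in chilled and untreated 93-11, and 2.23 and 1.98 in Nipponbare, where its read ratio was 1.13 (0.60 to 2.15). LOC_Os05g08890 had 507 and 15 reads in 93-11 and 1 and 3 in Nipponbare. LOC_Os08g45120 and LOC_Os05g08890 thus had at most 3 reads in each Nipponbare library.

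Other members were abundant and measured with narrow intervals. LOC_Os09g29490 had 198 RPKM in chilled and 8.02 in untreated 93-11, and 12.6 and 8.63 in Nipponbare, with read ratios of 24.7 (21.5 to 28.6) in 93-11 and 1.46 (1.19 to 1.78) in Nipponbare. LOC_Os03g18400 had 137 and 12.5 RPKM in 93-11 and 5.79 and 3.16 in Nipponbare, so it was also higher in untreated 93-11 than in untreated Nipponbare, by 1.70 on the log2 (RPKM + 1) scale. LOC_Os03g18600 had 147 and 18.2 RPKM in 93-11 and 39.6 and 20.1 in Nipponbare. The untreated levels of LOC_Os03g18600 were alike in the cultivars, and chilled Nipponbare stood between them and chilled 93-11.

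For LOC_Os05g04000, LOC_Os10g42960 and LOC_Os12g12260, chilled Nipponbare also stood between the untreated libraries and chilled 93-11. Their untreated levels were less alike, with 93-11 at 0.654, 0.821 and 0.775 of Nipponbare. In chilled 93-11 these genes had 121, 83.5 and 72.5 RPKM, against 14.1, 12.02 and 7.82 in untreated 93-11. In chilled Nipponbare they had 43.2, 22.5 and 18.03 RPKM, against 21.6, 14.6 and 10.1 in untreated Nipponbare. Their read ratios in Nipponbare were 2.002 (1.70 to 2.36), 1.54 (1.37 to 1.73) and 1.79 (1.58 to 2.03), each with an interval above 1. For these genes the cultivars differed in the size of the ratio and not in its direction. With TMM scaling the Nipponbare ratios (RPKM + 1) of LOC_Os05g04000, LOC_Os12g12260 and LOC_Os03g18600 were 2.49, 2.16 and 2.44, over the limit, as they were with upper quartile scaling. LOC_Os10g42960 stayed within the rule under both scalings. LOC_Os03g18400 stayed within it with TMM scaling (1.99) and not with upper quartile scaling (2.02).

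**Figure D3:**
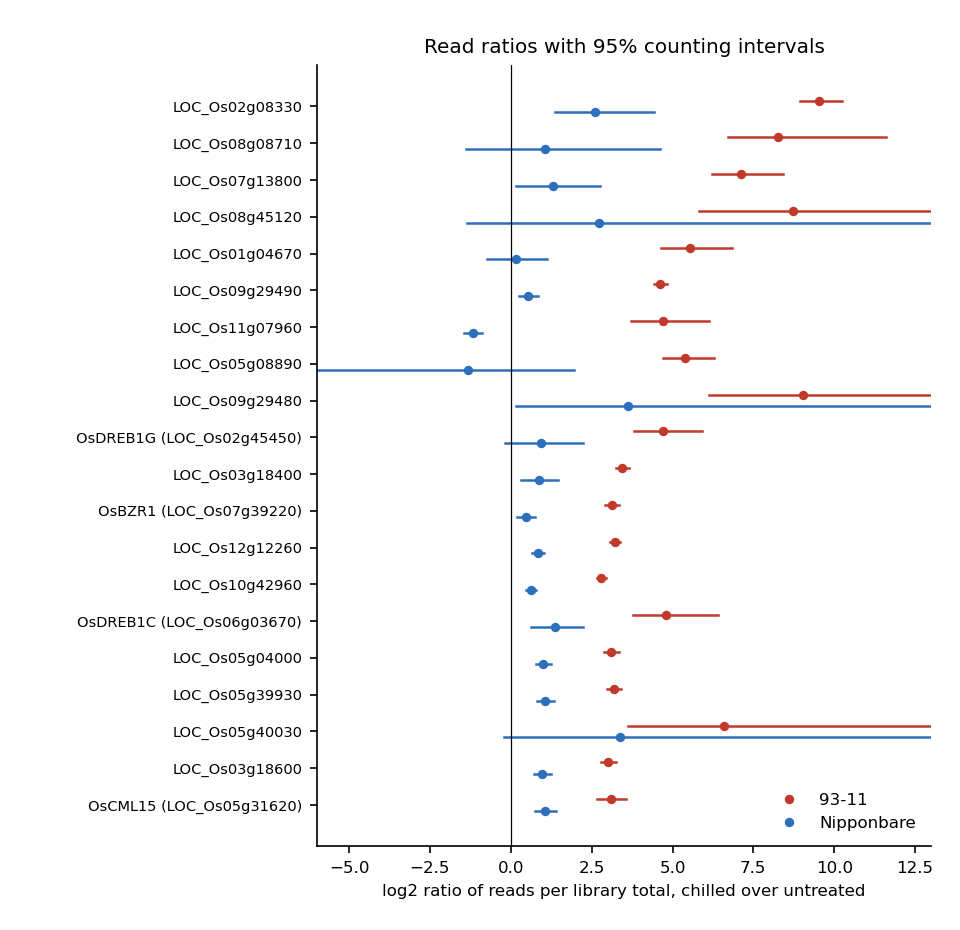
Log2 ratios of reads per library total, chilled over untreated, for 20 members in 93-11 (red, upper of each pair) and Nipponbare (blue, lower), with points (0.5 reads added) and bars for the 95% counting interval, clipped at the axis ends and open where the untreated library had 0 reads. In 17 of the 20 pairs the bars do not overlap, and most Nipponbare bars lie wholly above 0. The choice of members favours such gaps.

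Read counts give the size of each member's ratio in both cultivars. In 93-11 the counting interval lay above 2-fold for all 61 members and above 6-fold for 58. In Nipponbare it lay above 1 for 34 members, beside 12.3 percent of all identifiers, and above 2-fold for 4, beside 5.76 percent. It lay below 1 for 3 members, beside 20.5 percent. These contrasts were used in the choice, so nothing is read from the counts or shares. Shares over all identifiers were not worked out for the 93-11 intervals. As deposited, 53 members had a higher RPKM in chilled than in untreated Nipponbare. With TMM scaling the Nipponbare interval lay above 1 for 43 members and below 1 for 2. The shares of all identifiers for these counts were not worked out. The difference of log2 read ratios between cultivars had a counting interval above 0 for 53 members, beside 10.5 percent of all identifiers, and its median over members was 3.20 (1.43 to 9.23). The intervals of the cultivars' own ratios did not overlap for 43 members. The same count over all identifiers was not made, and the choice favours such a gap, so nothing is read from it. Induction mainly in 93-11 is the name of the rule, which sets the sizes of the ratios. The rule does not require an unchanged level in Nipponbare, where 53 members were higher when chilled.

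Members fell into groups by their level in Nipponbare. Both Nipponbare libraries were under 1 RPKM for 19 members. These had a median of 7.60 RPKM in chilled and 0.0530 in untreated 93-11, and 0.590 in chilled and 0.0517 in untreated Nipponbare. At such levels the added pseudocount hides changes: 8 of the 19 had a Nipponbare interval above 1. LOC_Os09g32370 had 26 reads in chilled and 0 in untreated Nipponbare, while its ratio (RPKM + 1) was 1.85. The read ratio was 8.15 with the untreated library set to 3 reads, with a lower 95% counting bound of 6.17. LOC_Os03g61160 had 15 and 1 reads in Nipponbare, a ratio of 14.1 (2.17 to 593). In chilled and untreated 93-11, LOC_Os09g32370 had 156 and 1 reads and LOC_Os03g61160 had 162 and 4.

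A further 41 members were above 1 RPKM in at least 1 Nipponbare library and, when untreated, under 0.5 of the chilled 93-11 level there. They had a median of 29.9 RPKM in chilled and 2.42 in untreated 93-11, and 4.99 in chilled and 3.16 in untreated Nipponbare, and 26 of the 41 had a Nipponbare interval above 1. The last member, LOC_Os11g07960, was already present in untreated Nipponbare. It had 7.81 RPKM in chilled and 0.280 in untreated 93-11, and 8.03 in chilled and 18.1 in untreated Nipponbare. The chilled libraries were alike, and the untreated libraries stood on opposite sides of them. It is the only member at or under a ratio of 0.5 in Nipponbare, at 0.472, beside 10.6 percent of all identifiers. With TMM and upper quartile scaling its ratio was 0.594 and 0.607, so under either scaling it was above 0.5.

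The cultivars were also set side by side within each condition. Among chilled libraries, 93-11 was above Nipponbare for 60 of 61 members, by a median of 6.94-fold over the 60 members with reads in chilled Nipponbare. Ratios (RPKM + 1) of at least 2 were found for 56 members, beside 3.2 percent of all identifiers. Among untreated libraries, 93-11 was below Nipponbare for 42 members, above it for 14 and equal for 5. It was at or under a ratio of 0.5 for 8 members, beside 3.8 percent, and at or over 2 for 1 member, beside 1.58 percent. On the log2 (RPKM + 1) scale the median difference, 93-11 minus Nipponbare, was 2.16 in chilled and -0.14 in untreated seedlings. Over all identifiers the untreated difference had a median of 0.0 and quartiles of -0.106 and 0.0268. The split into lower, higher and equal was not worked out over all identifiers. The genome to which 93-11 reads were mapped is not given, and differences in mapping between the cultivars were not tested. As plain RPKM the untreated 93-11 level was a median of 0.684 of the Nipponbare level, over the 53 members with reads in untreated Nipponbare. The rule used all of these libraries, and adding 1 RPKM draws differences of low genes towards 0, so nothing further is read from them.

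**Figure D4:**
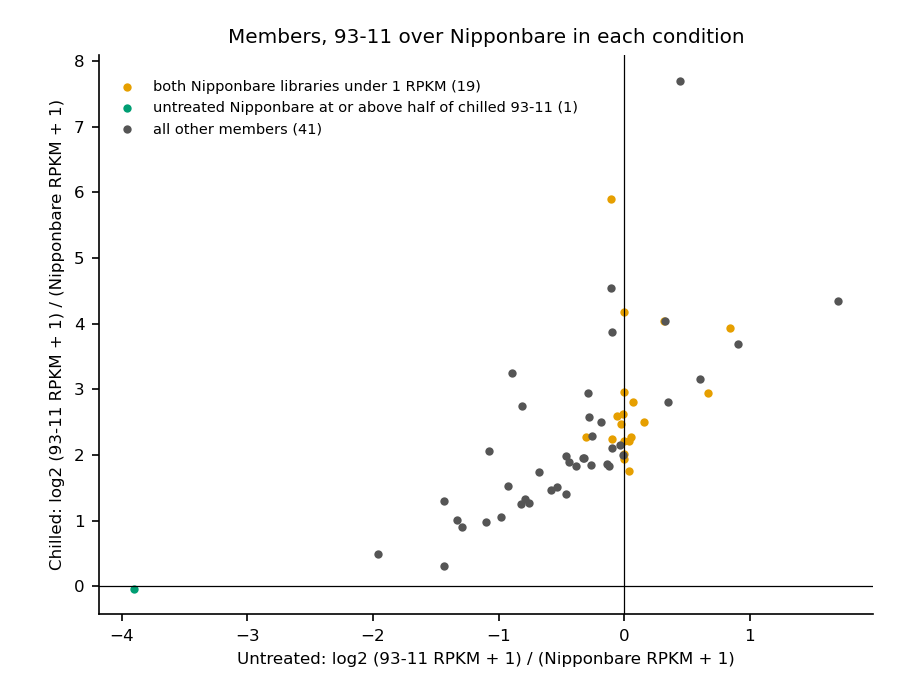
Log2 (93-11 RPKM + 1) / (Nipponbare RPKM + 1) for each member, in untreated seedlings on the x axis and chilled seedlings on the y axis, coloured by the level in Nipponbare. Points lie above 0 on the y axis except LOC_Os11g07960 at the lower left, and 42 of 61 lie left of 0 on the x axis.

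Members with a lower untreated level in 93-11 included LOC_Os10g42770, with 56.2 RPKM in chilled and 5.44 in untreated 93-11, and 39.8 and 24.0 in Nipponbare. LOC_Os03g48060 had 53.2 and 5.92 RPKM in 93-11, and 25.8 and 16.4 in Nipponbare. In both genes the untreated 93-11 library was the lowest of the 4 and chilled 93-11 the highest. They were chosen here after their values were seen, as examples of the left side of the plot of cultivar differences.

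By locus identifier, members lay on all 12 chromosomes. Of the 60 with a locus identifier, 11 were on chromosome 5, or 18.3 percent, where 8.19 percent of all identifiers and 8.67 percent of the genes with a ratio of at least 6 in 93-11 lie. Chromosomes 2, 3 and 6 held 7 members each (11.7 percent), beside 9.64, 9.98 and 8.44 percent of all identifiers. Chromosome 1 held 6 (10 percent, beside 11.7) and chromosome 9 held 5 (8.33, beside 6.11). Chromosomes 7 and 8 held 4 each (6.67, beside 7.97 and 7.51). Chromosomes 4 and 12 held 3 each (5, beside 9.53 and 7.19). Chromosome 10 held 2 (3.33, beside 6.29) and chromosome 11 held 1 (1.67, beside 7.46). On chromosome 1, with 17.6 percent of the genes at a ratio of at least 6 in 93-11, 10 percent of members lay. The shares were not tested, and nothing is read from that of chromosome 5. The remaining member, ChrSy47, is not a locus identifier and has no place on a chromosome. It had 14.02 RPKM in chilled and 0.565 in untreated 93-11, and 5.13 and 3.23 in Nipponbare.

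**Figure D5:**
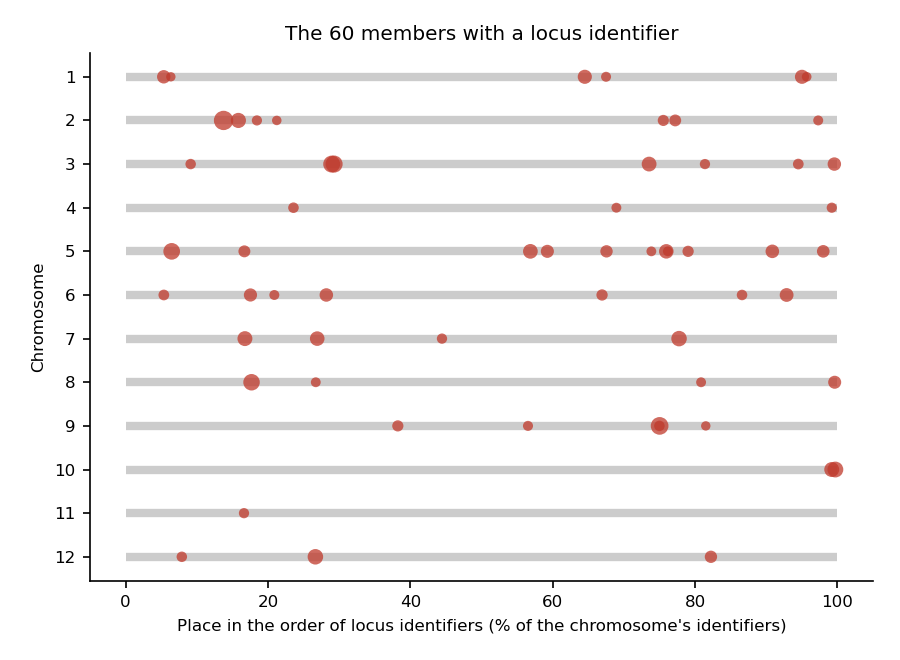
The 60 members with a locus identifier, by chromosome (y axis) and by place in the order of that chromosome's identifiers as a percentage (x axis), with larger points for higher RPKM in chilled 93-11. Members are spread over all 12 chromosomes, with 11 on chromosome 5 and both members of chromosome 10 near its end.

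Few members were neighbours. Only 4 of 60 (6.67 percent) had another member among the 10 identifiers on either side. LOC_Os09g29480 and LOC_Os09g29490 are next to each other on chromosome 9. LOC_Os09g29480 had 203 reads in chilled and 0 in untreated 93-11, and 6 and 0 in Nipponbare. In 93-11 that is 86.8-fold with the untreated library set to 3 reads, with a lower 95% counting bound of 69.9. Both neighbours were highest in chilled 93-11, at 8.74 and 198 RPKM, and whether they share reads was not tested. LOC_Os05g39930 and LOC_Os05g40030, with 9 identifiers between them, had 47.3 and 6.404 RPKM in chilled 93-11, and 5.19 and 0 in untreated 93-11. In Nipponbare they had 11.0 and 0.835 RPKM when chilled, and 5.25 and 0 when untreated.

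Members lay near other chilling-responsive genes about as often as such genes in general. Another gene with a ratio of at least 6 in 93-11 was found within 10 identifiers of 27 members (45.0 percent), and of 43.0 percent of all such genes with a locus identifier. Among the 600 identifiers within 5 places of a member, 21 (3.5 percent) reached 6 in 93-11 and 17 (2.83 percent) in Nipponbare, beside 1.63 and 1.41 percent of all identifiers. The 21 include the neighbouring members LOC_Os09g29480 and LOC_Os09g29490, and many of all identifiers had no read in any library. Flanks of other genes with such a ratio were not counted, so nothing is read from these shares. On chromosome 8, LOC_Os08g36920 (96 reads in chilled and 0 in untreated 93-11, 9 and 1 in Nipponbare) lies next to the alpha-amylase gene RAmy3D. RAmy3D had 13.5 RPKM in chilled and 0.0662 in untreated 93-11, and 2.24 and 0 in Nipponbare, and the next amylase gene, RAmy3E, had no read in any library.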

How the data were processed

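Poly(A) RNA of pooled aerial parts was sequenced in 4 libraries, 1 for each cultivar and treatment. The deposited values are RPKM, made by the authors; per the submitters' processing notes Bowtie2 2.0.6, TopHat2 2.0.9 and HTSeq 0.5.4p3 were used, with no role or order given. The sources used here do not give the genome build, the annotation, the strand setting or the genome to which 93-11 reads were mapped. Reads of overlapping or antisense genes may therefore be mixed. Reads were worked out from the values: 1 whole length per gene and 1 whole total per library made all 36941 genes above 0 whole within rounding, and 0 of 500 well-covered genes with totals shifted by 1 or 2 percent. Reads are known up to a common factor and sum to 97.7 to 98.1 percent of the totals. This was checked on simulated data. Each group has 1 library, so no test was run and no p-value is given. Read ratios have exact conditional binomial (Clopper-Pearson) 95% intervals and their differences Wald 95% intervals with 0.5 reads added. Intervals and the floor of 3 reads cover counting error only.

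The members, the 20 lists (201 loci, from general knowledge) and the 2 lists added later were chosen with earlier results of these data known. The RefSeq gene table (assembly ASM3414082v1) holds 0 of the files' identifiers. A name is printed only if that table has its symbol or synonym on the same chromosome, in unchanged gene order, which held for 150 of 225 loci, so the pairing itself rests on general knowledge. Counts over a list include all its loci. Named members are those of checked name, the 8 highest in chilled 93-11, the 8 with the largest difference of log2 ratios, neighbouring members and those at the thresholds; other genes named were chosen after their values were seen. Alternatives were other pseudocounts, thresholds and filters, and scaling by TMM (trims 0.3 and 0.05) or upper quartile. Python 3.11.15, numpy 2.4.6, pandas 2.3.3 and scipy 1.17.1 were used.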

Additional observations from a re-analysis of the deposited data

Results flagged for a closer look

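For 8 members the chilled library was above the untreated one in 93-11 and below it in Nipponbare. With 1 library per group the difference was not tested. As differences of log2 read ratios, 93-11 minus Nipponbare, they were 9.23 for LOC_Os01g05370, 7.39 for LOC_Os06g11280, 6.70 for LOC_Os05g08890, 5.88 for LOC_Os11g07960, 5.35 for LOC_Os02g46370, 4.69 for LOC_Os04g15580, 4.03 for LOC_Os12g36980 and 3.14 for LOC_Os06g48160. The counting interval of the Nipponbare ratio lay below 1 for LOC_Os11g07960 (0.44, 0.36 to 0.54), LOC_Os06g11280 (0.17, 0.03 to 0.57) and LOC_Os04g15580 (0.61, 0.42 to 0.89). With TMM scaling it lay below 1 for the first and second of these only, and LOC_Os12g36980 and LOC_Os06g48160 turned to ratios above 1, at 1.21 and 1.22. LOC_Os01g05370 rests on 0 and 1 reads in chilled and untreated Nipponbare, beside 220 and 1 in 93-11.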

How the results depend on the processing

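The number of members depended on the pseudocount and the thresholds: it was 219 with a pseudocount of 0.1 RPKM (33 of them among the 61), 17 with 5, 165 and 11 with a ratio of at least 4 and 10 in 93-11, 32 and 113 with at most 1.5 and 3 in Nipponbare, and 36 with at least 10 RPKM in chilled 93-11. Requiring whole counting intervals above 6 in 93-11 and below 2 in Nipponbare left 16, of which 10 were among the 61. TMM scaling, which added 0.23 to log2 ratios in 93-11 and 0.36 in Nipponbare, gave 61, of which 46 were members, and upper quartile scaling 65, of which 45 were. With no pseudocount and at least 5 RPKM, an alternative chosen after seeing the data, there were 64, of which 32 were members. Members low in Nipponbare numbered 135, 39 and 2 with pseudocounts of 0.1, 0.5 and 5 RPKM, 48 and 3 with ratios of at least 4 and 10, and 5 with at least 10 RPKM. Members already present in untreated Nipponbare numbered 22 with a pseudocount of 0.1, 7 with a ratio of at least 4, 2 under TMM and under upper quartile scaling, and 0 with a pseudocount of 5, a ratio of at least 10 or at least 10 RPKM. The share with a neighbouring member was 0 under those last 3 settings. For 20 named members under 5 alternatives each, the difference of log2 ratios moved by more than its counting error in 8 of 100 values. Among them were LOC_Os11g07960 (3.87 as reported, 2.11 with a pseudocount of 5) and LOC_Os07g13800 (4.66 as reported, 3.15). Counting error is wide for genes with few reads, so LOC_Os08g45120 (4.18 as reported, 2.47 with a pseudocount of 5) did not count as moved. The count of 8 is thus no measure of stability. The choice of members fixes the direction of the difference. No paired analysis was possible because each group holds 1 library, and for the same reason no library could be left out.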
